A study of Mus musculus with 6 samples.

Results

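Efferocytosis, the uptake of dying cells by other cells, was examined through 7 genes in liver NK cells of mice with fibrosis that had been sorted for CD36, a receptor for fatty acids. The genes were chosen by name, with earlier results of these data known. Axl, Mertk and Tyro3 encode the TAM receptor tyrosine kinases. Gas6, Pros1 and Mfge8 encode secreted bridging proteins, and Timd4 encodes the receptor TIM-4. These genes are 7 of the 57180 genes in the deposited table, and 7 of 7 were among the 14761 genes with enough counts to be tested. Male wild-type C57BL/6J mice aged 6 to 8 weeks had received CCl4 in olive oil by intraperitoneal injection, 2.5 ml/kg at 20%, given 2 times weekly over 4 weeks, and were killed 48 h after the last dose. NK cells, which the flow cytometry of the study gated as CD3- NK1.1+, were sorted from the liver into a CD36+ NK and a CD36- NK fraction, and RNA of 3 samples of each was sequenced. Both fractions therefore came from CCl4-treated livers, and no oil-treated samples were among the 6. The submitters describe the samples as biological triplicates, and the sources used here do not say whether animals were pooled for a sample or shared between the fractions.

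Dying cells display phosphatidylserine on their surface. The TAM receptors do not bind this lipid themselves but through Gas6 and protein S, the product of Pros1, whose vitamin K-dependent Gla domains hold the lipid while the other end of the protein binds the receptor. Mfge8 links the lipid to integrins, and TIM-4 binds it directly. Mertk, Axl and TIM-4 are best known from tissue macrophages and Axl also from dendritic cells, and TAM receptors on NK cells have been described as brakes on NK cell activity.

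Libraries held 10292480 to 13787189 counts. Cd36, the gene of the sorted marker, was counted 1232, 3569 and 2859 times in CD36+ NK and 186, 359 and 175 times in CD36- NK, so the titles and the sorted marker went the same way. Marker lists of the cell types that a liver sort could hold were counted next to the 7 genes. In the NK lineage list, 12 of 12 genes were tested and 11 were lower in CD36+ NK by the call rule given below, and its summed level was 1085 to 1292 CPM (counts scaled to a common library total, with TMM factors) in CD36+ NK and 5319 to 6737 CPM in CD36- NK. The macrophage and Kupffer cell list had 9 tested genes of 12, of which 4 were higher by edgeR and 8 by DESeq2 and by the exact test of edgeR, with a summed level of 6729 to 9346 CPM in CD36+ NK and 2472 to 5808 CPM in CD36- NK. Clec4f, a defining Kupffer cell gene, had 17, 624 and 0 counts in CD36+ NK replicates 1 to 3 and 0 in every CD36- NK library, and Vsig4 had 10, 181 and 6 counts against 0, 3 and 0. In CD36+ NK replicate 1 the T cell gene Cd3e had 303 counts, against 1 to 12 counts in the other libraries. CD36- NK replicate 2 stood apart in several of the 7 genes, as given below with and without it. In bulk RNA of this kind, fewer cells of a type and less RNA per cell cannot be told apart.

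Of the 7 genes, Tyro3 fell in the CD36+ NK libraries, while the related receptor genes Axl and Mertk stood higher in each CD36+ NK library without passing the test. Relative to the summed NK lineage list, which was also lower in CD36+ NK, Tyro3 overlapped between the groups, as given below. A gene was called a DEG where edgeR's quasi-likelihood test gave a Benjamini-Hochberg adjusted p below 0.05 over the 14761 genes and the fold change was above 2. By this rule 1 of the 7 genes was a DEG, against a background of 5.96% of all tested genes. In 7 of 7 genes the CD36+ NK and CD36- NK libraries did not overlap, as in 32.7% of all tested genes. The levels of 5 genes (Axl, Mertk, Gas6, Pros1 and Timd4) were higher in each CD36+ NK library than in each CD36- NK library, as in 17.0% of tested genes, and those of Tyro3 and Mfge8 were lower, as in 15.7%.

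**Figure D1:**
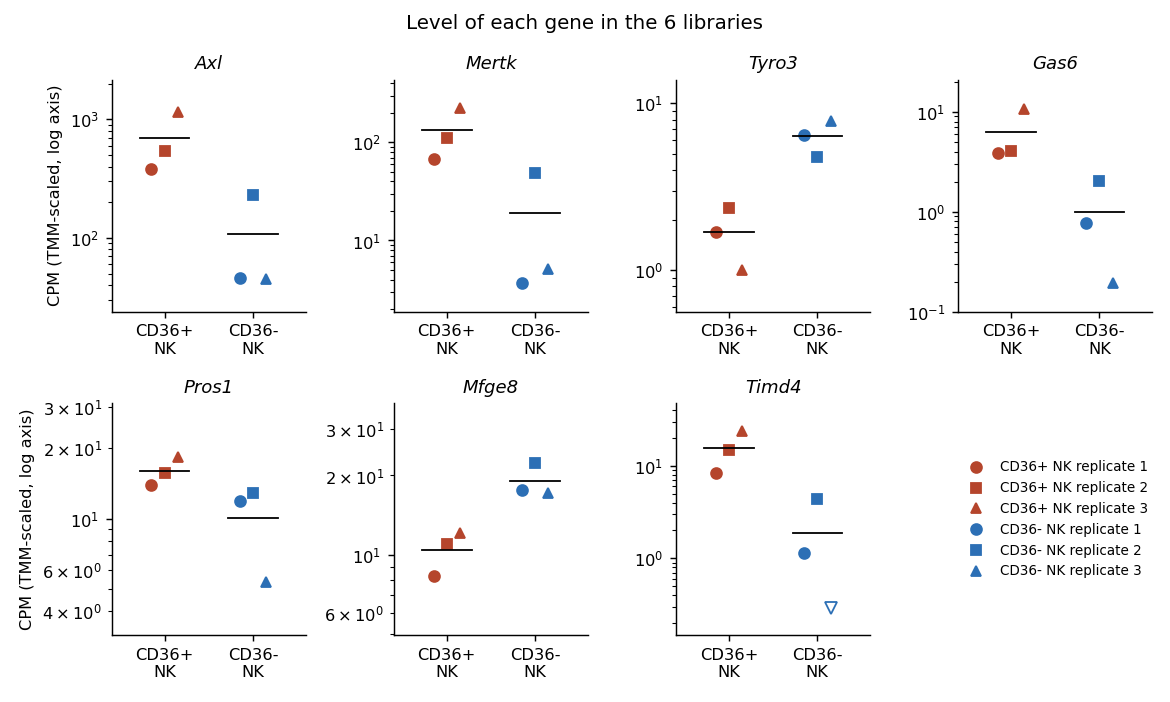
TMM-scaled CPM of the 7 genes on log axes, with a point for each of the 3 libraries of a group and a line at the group mean. The open triangle for Timd4 stands at 0.293 CPM, the level of 3 counts, for the library with 0 counts; CD36- NK replicate 2 lies above the other CD36- NK libraries for Axl, Mertk, Gas6 and Timd4.

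The stretches of DNA upstream of the starts of the 3 TAM receptor genes and Timd4 are shown because these receptors went in different directions between the fractions. They are the 250 bases before each RefSeq start, on the gene's own strand, in build GRCm38.p6, and capitals mark GGGCGG or its complement CCGCCC, the core motif bound by Sp1. Axl lies at chr7:25788734-25788983 on the minus strand, Mertk at chr2:128698665-128698914 on the plus strand, Tyro3 at chr2:119799264-119799513 on the plus strand and Timd4 at chr11:46810549-46810798 on the plus strand.
Axl: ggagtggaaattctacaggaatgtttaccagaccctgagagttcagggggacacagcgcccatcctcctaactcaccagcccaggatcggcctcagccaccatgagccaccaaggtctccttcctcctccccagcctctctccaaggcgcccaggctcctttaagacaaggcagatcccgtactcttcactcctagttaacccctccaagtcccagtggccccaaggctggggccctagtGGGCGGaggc
Mertk: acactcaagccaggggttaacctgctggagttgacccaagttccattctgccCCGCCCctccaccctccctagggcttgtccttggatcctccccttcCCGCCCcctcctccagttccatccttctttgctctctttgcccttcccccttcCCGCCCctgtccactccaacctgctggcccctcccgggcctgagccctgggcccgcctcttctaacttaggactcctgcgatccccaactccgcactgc
Tyro3: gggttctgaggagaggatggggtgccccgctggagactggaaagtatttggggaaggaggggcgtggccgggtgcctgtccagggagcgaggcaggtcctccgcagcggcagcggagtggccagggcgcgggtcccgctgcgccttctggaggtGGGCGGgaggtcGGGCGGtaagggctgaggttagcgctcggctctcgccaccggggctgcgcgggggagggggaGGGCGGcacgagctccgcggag
Timd4: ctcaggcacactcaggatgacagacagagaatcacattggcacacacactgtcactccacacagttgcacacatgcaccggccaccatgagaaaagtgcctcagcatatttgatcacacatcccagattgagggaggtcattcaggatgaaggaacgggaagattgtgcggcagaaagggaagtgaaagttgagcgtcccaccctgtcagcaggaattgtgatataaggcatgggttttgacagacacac
The motif was found on either strand in 6 of the 7 genes, the exception being Timd4, and in 32.7% of the 32851 RefSeq windows of this length. The windows are in a build of their own, and their coordinates cannot be set beside those of the table. The Tyro3 window was the richest in G and C, at 73.2% with 24 CpG pairs, and the Timd4 window the poorest of the 7, with 4 CpG pairs, against a median of 52.4% and 6 pairs over all windows. Axl and Mertk stood between them, at 60.0% with 5 pairs and 63.6% with 7 pairs. Other motifs were searched in the same way. TTCNNNGAA, a STAT site, occurred only in the Pros1 window and in 7.02% of all windows, and TGTGGT, a RUNX site, only in the Mfge8 window and in 4614 of the windows. The PU.1 site GAGGAAGT (2.44% of all windows), the AP-1 site TGANTCA (6.75%), the T-box site AGGTGTGA (1.12%) and an LXR direct repeat (0.0152%) had no match in the 7 windows. A match is a run of letters and not a measured binding site.

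Axl (ENSMUSG00000002602; chromosome 7, from 25456698 to 25488130, minus strand, in table coordinates whose build is not named) encodes the TAM receptor that binds Gas6. It had 4280, 7362 and 13796 counts in CD36+ NK replicates 1 to 3 and 596, 2613 and 460 in CD36- NK replicates 1 to 3. These are 381, 542 and 1147 CPM in CD36+ NK and 45.8, 231 and 44.9 CPM in CD36- NK. CD36- NK replicate 2 lay well above the other CD36- NK libraries, at 5.04 times replicate 1, and the lowest CD36+ NK library was 1.65 times as high as it. The means were 690 ± 404 CPM (SD, n = 3) and 107 ± 107 CPM (SD, n = 3), and the log2 fold change was 2.69 (standard error, SE, 0.750), a 6.43-fold difference that was not significant (edgeR adjusted p = 0.0651).

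Mertk (ENSMUSG00000014361; chromosome 2, from 128540876 to 128644814, plus strand) encodes the TAM receptor that macrophages use to take up apoptotic cells. It had 762, 1523 and 2667 counts in CD36+ NK and 48, 548 and 52 in CD36- NK, or 67.8, 112 and 222 CPM against 3.69, 48.5 and 5.08 CPM. Again CD36- NK replicate 2 stood alone within its group, at 13.1 times replicate 1. The means were 134 ± 79.2 and 19.1 ± 25.5 CPM (SD, n = 3 each), with a log2 fold change of 2.81 (SE 0.965, adjusted p = 0.114 by edgeR). Of the genes that overlap Mertk, Gm14011 on the other strand had 0 counts in all libraries and Gm56345 on the same strand had 6.

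Tyro3 (ENSMUSG00000027298; chromosome 2, from 119628214 to 119648585, plus strand), the TAM receptor gene best known from the nervous system, lies 8.89 Mb from Mertk. Its counts were 19, 32 and 12 in CD36+ NK and 84, 54 and 80 in CD36- NK, and its levels 1.69, 2.35 and 0.998 CPM against 6.46, 4.77 and 7.81 CPM. The highest CD36+ NK library was below the lowest CD36- NK library, which had 2.03 times its level, and CD36- NK replicate 2 was here the lowest library of its group. Tyro3 fell from 6.35 ± 1.52 CPM in CD36- NK to 1.68 ± 0.678 CPM in CD36+ NK (SD, n = 3 each), a log2 fold change of -1.90 (SE 0.353, adjusted p = 0.0197 by edgeR). Among the fits that left out 1 library, the call was lost without the third CD36+ NK library (adjusted p = 0.0524 by edgeR), the first CD36- NK library (0.0676) or the third (0.0684), and the fold changes then were -1.63, -1.90 and -1.73 on the log2 scale. All 6 counts of Tyro3 were below 100.

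Without CD36- NK replicate 2 the picture changed for most of these genes. Axl, Mertk, Gas6 and Timd4 then rose in CD36+ NK, with log2 fold changes of 3.92, 4.93, 3.60 and 4.61 (SEs 0.510, 0.601, 0.740 and 0.906; edgeR adjusted p = 0.00897, 0.00785, 0.0305 and 0.0267), and Tyro3 stayed a DEG at -2.07. In that fit 5 of 7 genes were DEGs, against 7.59% of the 15276 genes tested in it. In the fit with all libraries, 5 of 7 genes had a fold change above 2 at any p, as had 10.4% of tested genes. Without CD36+ NK replicate 1, the library with most Cd3e counts, Tyro3 was the 1 DEG of the 7, as with all libraries (background 7.38%), and likewise without CD36+ NK replicate 2 (2.81%). Leaving out the third CD36+ NK library gave 0 DEGs of 7 by edgeR (background 3.02%), as did leaving out the first (2.80%) or the third (2.82%) CD36- NK library, and 5 of 7 were at an unadjusted p below 0.05 each time, beside 2988 of all 14921, 3575 of 14916 and 3211 of 15285 genes tested in these fits. DESeq2 called 3 of the 7 (Axl, Tyro3 and Gas6, background 7.74%), the exact test of edgeR 4 (those and Mertk, 8.45%), and edgeR with the form of the library name as a block 2 (Axl and Tyro3, 6.18%).

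**Figure D2:**
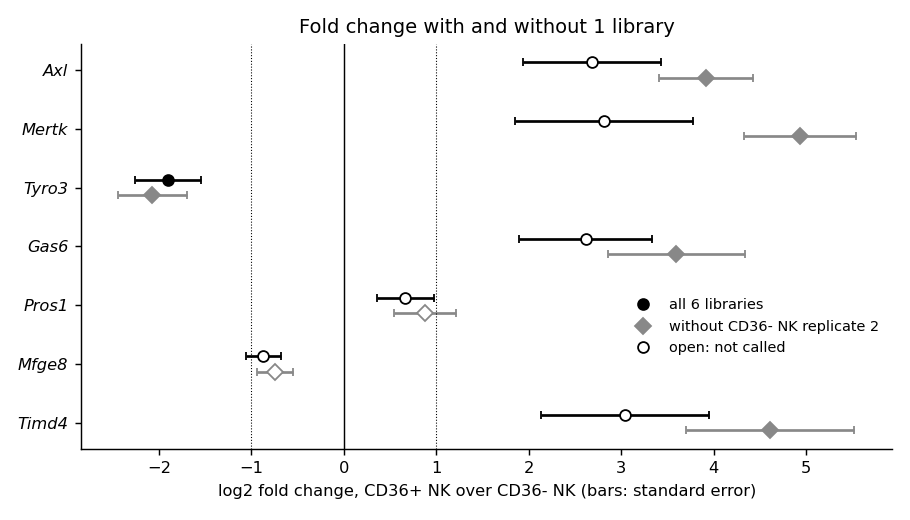
Log2 fold change of each gene in CD36+ NK over CD36- NK with its standard error, from edgeR with all 6 libraries (circles) and without CD36- NK replicate 2 (diamonds), where filled marks are DEGs and dotted lines stand at a fold change of 2. With all libraries Tyro3 alone was a DEG, at -1.90, and without the library Axl, Mertk, Gas6 and Timd4 passed as well.

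The balance among the receptors was compared within each library, from FPKM (counts scaled by gene length and library total), where the scaling of a library cancels. Axl exceeded Mertk in all 6 libraries, at 4.01, 3.45 and 3.70 times its FPKM in CD36+ NK and 8.87, 3.41 and 6.32 times in CD36- NK. The groups overlapped in this ratio, and the mean log2 ratio differed by -0.63 (exact permutation test, two-sided, p = 0.4). The Axl to Tyro3 ratio was 244, 249 and 1244 in CD36+ NK and 7.68, 52.3 and 6.22 in CD36- NK, a log2 difference of 4.96. The Mertk to Tyro3 ratio was 60.7, 72.1 and 337 in CD36+ NK and 0.865, 15.4 and 0.984 in CD36- NK, a log2 difference of 5.59, so Mertk and Tyro3 were close in CD36- NK replicates 1 and 3 alone. Each of these ratios was higher in 3 of 3 CD36+ NK libraries than in any CD36- NK library (p = 0.1 by a two-sided exact permutation test, which cannot go lower with 3 against 3; adjusted over the 3 ratios, p = 0.15). This separation follows from the levels given above, where Axl and Mertk were higher and Tyro3 lower in each CD36+ NK library. The test of these ratios to Tyro3 could therefore not have come out otherwise. Without CD36- NK replicate 2 the log2 differences were 5.93 for Axl to Tyro3 and 6.95 for Mertk to Tyro3, and without CD36+ NK replicate 3 they were 4.18 and 4.81. Mertk to Tyro3 was at 4.87 without the first and 4.96 without the third CD36- NK library. A Gas6 to Pros1 ratio was not formed because Gas6 had under 3 counts in 1 library.

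**Figure D3:**
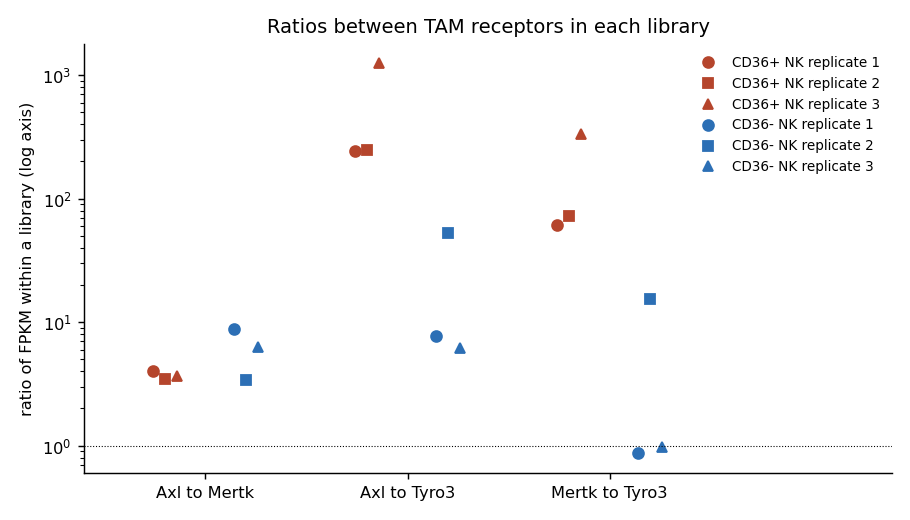
Ratios of FPKM between TAM receptor genes within each of the 6 libraries, on a log axis with a dotted line at 1. Axl to Mertk overlapped between the groups (3.45 to 4.01 against 3.41 to 8.87), and the ratios to Tyro3 did not.

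Gas6 (ENSMUSG00000031451; chromosome 8, from 13515374 to 13544490, minus strand) encodes the ligand of all TAM receptors and the one that Axl depends on. It had 44, 55 and 129 counts in CD36+ NK and 10, 23 and 2 in CD36- NK, or 3.92, 4.05 and 10.7 CPM against 0.769, 2.03 and 0.195 CPM. The groups did not overlap, but the last value rests on fewer than 3 counts, the floor of a library (0.293 CPM there). The log2 fold change was 2.62 (SE 0.716, adjusted p = 0.0623 by edgeR). A gene on the opposite strand that overlaps Gas6, Tmem255b, had 0 counts.

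Pros1 (ENSMUSG00000022912; chromosome 16, from 62674670 to 62749709, plus strand), which encodes the anticoagulant protein S and TAM ligand, had 157, 212 and 220 counts in CD36+ NK and 154, 145 and 55 in CD36- NK. Its levels were 13.97, 15.6 and 18.3 CPM against 11.8, 12.8 and 5.37 CPM, and the groups were separated by a factor of only 1.09. The means of 16.0 ± 2.18 and 10.01 ± 4.05 CPM (SD, n = 3 each) gave a log2 fold change of 0.67 (SE 0.310, adjusted p = 0.229 by edgeR), and no alternative made Pros1 a DEG. Without CD36- NK replicate 3 the log2 fold change was 0.36.

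Mfge8 (ENSMUSG00000030605; chromosome 7, from 78783516 to 78798808, minus strand) encodes the milk fat globule protein that bridges dying cells to alpha-v integrins. Its counts were 93, 149 and 145 in CD36+ NK and 230, 253 and 176 in CD36- NK, and its levels 8.28, 10.96 and 12.1 CPM against 17.7, 22.4 and 17.2 CPM. Like Tyro3 it was lower in each CD36+ NK library, with means of 10.4 ± 1.94 and 19.1 ± 2.86 CPM (SD, n = 3 each). Its log2 fold change of -0.87 (SE 0.188) had an edgeR adjusted p of 0.0316, as had 10.5% of tested genes below 0.05, but the 1.83-fold difference was under the fold threshold. The adjusted p was 0.0449 without CD36+ NK replicate 1 and 0.0598 to 0.0942 when any other library was left out, and 0.0504 without a filter on low counts.

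Timd4 (ENSMUSG00000055546; chromosome 11, from 46701627 to 46735159, plus strand), which encodes the phosphatidylserine receptor TIM-4 of resident macrophages, had 93, 199 and 284 counts in CD36+ NK and 15, 50 and 0 in CD36- NK. These are 8.28, 14.6 and 23.6 CPM against 1.15, 4.42 and 0 CPM, and 0 counts allow a level of up to 0.293 CPM in CD36- NK replicate 3, for counting error only. The log2 fold change was 3.05 (SE 0.909, adjusted p = 0.0778 by edgeR). CD36+ NK replicate 3, with the most Timd4 counts, was the CD36+ NK library with 0 counts of Clec4f. CD36+ NK replicate 2, with 624 of them, was the middle CD36+ NK library for Timd4. Cd5l, Marco and Adgre1 of the macrophage and Kupffer cell list peaked, like Timd4, in CD36+ NK replicate 3. Within CD36- NK they peaked in replicate 2. Cd5l had 1451, 3222 and 5464 counts in CD36+ NK and 169, 970 and 114 in CD36- NK. Adgre1 had 2531, 4725 and 6983 counts against 762, 1522 and 365. Lyz2, Vsig4 and Folr2 of that list did not peak in CD36+ NK replicate 3. The part of macrophage content in the Timd4 level was not tested.

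Of the 6 libraries, CD36+ NK replicate 3 was the highest and CD36- NK replicate 2 the fourth, above the other CD36- NK libraries, for Axl, Mertk, Gas6, Pros1 and Timd4. Axl, Gas6, Pros1 and Timd4 ranked all 6 libraries in one order, and Mertk differed from it in the last places alone, where CD36- NK replicates 1 and 3 traded positions. Mfge8 combined the opposite difference between the fractions with the same order inside each of them. Tyro3 was lowest in CD36+ NK replicate 3 and, within CD36- NK, lowest in replicate 2. The order of Axl was not limited to these genes. Adgre1, Cd5l and Csf1r of the macrophage and Kupffer cell list and the sinusoidal endothelial gene Stab2 had it as well. C1qa and Marco ranked the libraries as Mertk did, and Cd36 and Lyz2 had other orders. How many of all tested genes share the order of Axl was not counted.

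Per length, the 7 genes ranked differently in the fractions. In CD36+ NK the order of mean FPKM was Axl (78.6 ± 43.9), Mertk (21.4 ± 12.1), Timd4 (6.96 ± 3.28), Pros1 (3.42 ± 0.370), Gas6 (2.38 ± 1.42), Mfge8 (1.28 ± 0.207) and Tyro3 (0.180 ± 0.0741; SD, n = 3 each). Of the neighbours in this order, Pros1 and Gas6 overlapped between libraries and the others did not. In CD36- NK it was Axl (12.83 ± 13.004), Mertk (3.20 ± 4.31), Mfge8 (2.42 ± 0.404), Pros1 (2.22 ± 0.923), Timd4 (0.877 ± 1.09), Tyro3 (0.693 ± 0.155) and Gas6 (0.401 ± 0.382), and each gene overlapped with the next, so that this order is loose.

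Next to the marker lists of the same library, the genes behaved differently from one another. Per 1000 CPM summed over the macrophage and Kupffer cell list, Axl stood at 56.6, 69.2 and 123 CPM in CD36+ NK and at 8.52, 39.8 and 18.2 CPM in CD36- NK, and the groups did not overlap. Mertk stood at 10.1, 14.3 and 23.7 CPM against 0.686, 8.34 and 2.05 CPM, and Timd4 at 1.23, 1.87 and 2.53 CPM against 0.214, 0.761 and 0 CPM. Pros1 hardly varied on this scale, with 1.96 to 2.08 CPM in CD36+ NK and 2.17 to 2.21 CPM in CD36- NK, and its groups were in the reverse order of its CPM. Lyz2, at 3962 ± 425 and 3710 ± 1451 CPM (SD, n = 3 each), made up 37.3% to 64.0% of the summed list of a CD36+ NK library and 74.6% to 88.3% of that of a CD36- NK library, so this scale rests largely on 1 gene. With Lyz2 left out of the sum, an alternative added after the values were seen, Axl stood at 157, 145 and 196 CPM in CD36+ NK and 72.9, 156 and 107 CPM in CD36- NK, and the groups overlapped. Mertk overlapped as well, at 27.99, 30.04 and 37.8 CPM against 5.87, 32.8 and 12.1 CPM, as did Gas6. Timd4 did not overlap, at 3.42, 3.93 and 4.03 CPM against 1.83, 2.99 and 0 CPM, and Pros1 was lower in CD36+ NK, at 3.12 to 5.77 CPM against 8.68 to 18.8 CPM. The complement gene C1qa, another gene of the list, was at 436 ± 247 CPM in CD36+ NK and 58.2 ± 60.7 CPM in CD36- NK, with a log2 fold change of 2.91 that, like those of Axl and Mertk, did not pass (edgeR adjusted p = 0.0576). Tyro3, per 1000 CPM of the NK lineage list, stood at 1.42, 1.82 and 0.920 CPM in CD36+ NK and 1.05, 0.898 and 1.16 CPM in CD36- NK, and the groups overlapped. Mfge8 on that scale stood at 6.95, 8.49 and 11.1 CPM in CD36+ NK and 2.86, 4.21 and 2.55 CPM in CD36- NK, without overlap and in the reverse order of its CPM. The part of macrophage or NK cell content in these differences was not tested.

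**Figure D4:**
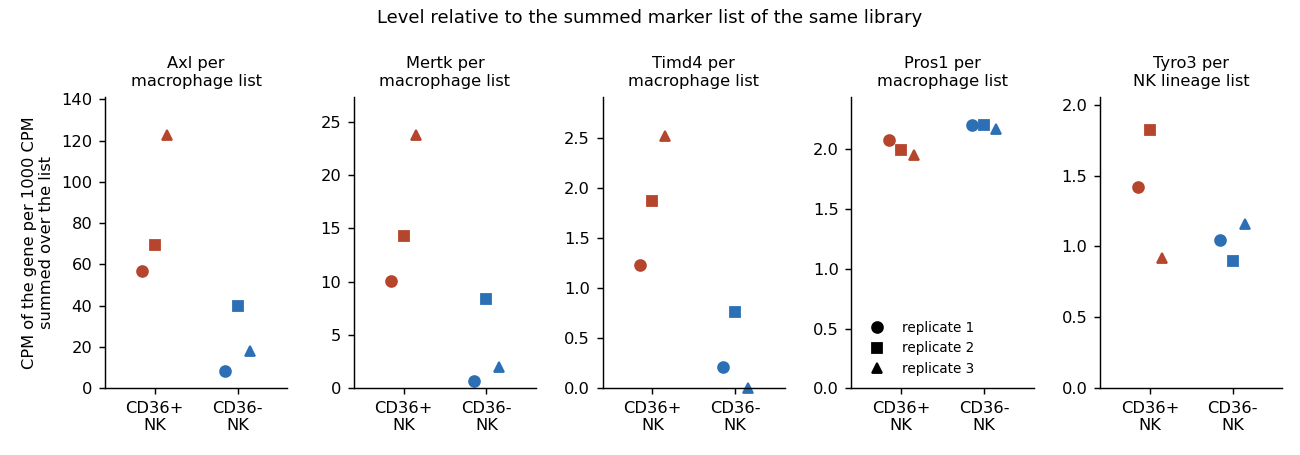
CPM of a gene per 1000 CPM summed over a marker list in the same library (linear axes from 0), for 4 genes against the macrophage and Kupffer cell list and for Tyro3 against the NK lineage list, with red points for CD36+ NK and blue points for CD36- NK. Axl, Mertk and Timd4 (0 in CD36- NK replicate 3, on the axis) were higher in each CD36+ NK library on this scale, to which Lyz2 gave 37.3% to 88.3% of the sum, Pros1 lay between 1.96 and 2.21 in all 6 libraries, and Tyro3 overlapped between the groups. With Lyz2 left out of the sum, which is not drawn, Axl and Mertk overlapped between the groups and Timd4 did not.

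The other marker lists moved with the fractions to different degrees. Beside a background of 2.98% in each direction, higher DEGs were 5 of 8 tested erythroid genes, 2 of 8 T cell genes, 2 of 4 platelet genes, 1 of 8 B cell genes, 1 of 5 sinusoidal endothelial genes and 1 of 2 stellate cell genes. Of the sinusoidal endothelial genes DESeq2 and the exact test called 3 of 5, and 4 of 5 were at an unadjusted p below 0.05, as were 26.3% of all tested genes. All 8 B cell genes had a positive log2 fold change, 7 of them at an unadjusted p below 0.05, and their summed level was 5070 to 5664 CPM in CD36+ NK and 3375 to 3844 CPM in CD36- NK. Of the monocyte list 1 gene was higher and 2 were lower, and of the conventional dendritic cell list 2 were higher and 1 was lower, while edgeR called 0 of 7 plasmacytoid dendritic cell genes (4 at an unadjusted p below 0.05, 1 called by DESeq2 and 1 by the exact test) and 0 of 8 neutrophil genes (0 by each of these). No hepatocyte gene had enough counts to be tested, and Hnf4a was at 0 in all libraries. Alb had 30, 106 and 9 counts in CD36+ NK and 9, 0 and 0 in CD36- NK. The summed hepatocyte list was 1.91 to 11.2 CPM in CD36+ NK and 0.0884 to 1.23 CPM in CD36- NK. For Axl and Gas6, which stellate and endothelial cells can also express, the summed stellate list was 6.77 to 8.81 CPM in CD36+ NK and 2.44 to 5.61 CPM in CD36- NK, with Lrat and Rgs5 at 0 in all libraries. The summed sinusoidal endothelial list was 273 to 406 CPM in CD36+ NK and 170 to 202 CPM in CD36- NK. Their part in the levels of Axl and Gas6 was not tested.

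Other genes of dead-cell clearance were examined in 8 lists with 122 genes, of which 112 were tested. Of these 112 genes 16 rose and 1 fell in CD36+ NK, so that 14.3% were higher DEGs, beside 2.98% of all tested genes, and 2.98% of all tested genes were lower DEGs. The lists were chosen with earlier results of these data known, so this share is a description. The 16 genes include Cd36, the gene of the sorted marker. The number of higher genes was 6 without CD36- NK replicate 1, where 0.630% of all tested genes were higher DEGs, and 27 without CD36- NK replicate 2, where 4.63% were, and between 7 and 21 when any other library was left out. The median log2 fold change over the 112 genes was 0.26, beside 0.01 over all tested genes.

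Among the other phosphatidylserine receptors and co-receptors, 7 of 19 tested genes rose and 0 fell. They include Cd36 itself, by which the fractions were sorted. Cd14, the lipopolysaccharide co-receptor that also tethers apoptotic cells, rose with a log2 fold change of 1.70 (SE 0.157, adjusted p = 0.00167 by edgeR). Stab1, which encodes the scavenger receptor stabilin-1, rose by 3.02 (SE 0.507, adjusted p = 0.0142 by edgeR). The remaining higher genes were Havcr2, which encodes TIM-3, Marco, Itgb5 and Cd300a. Itgb5, the beta chain of an integrin that Mfge8 binds, was at 166 ± 59.8 CPM in CD36+ NK and 39.7 ± 23.1 CPM in CD36- NK, while its alpha chain gene Itgav did not pass (log2 fold change 0.44, SE 0.558, adjusted p = 0.678 by edgeR).

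Of the other bridging molecules and opsonins, 0 of 11 tested genes were DEGs by edgeR, with 5 at an unadjusted p below 0.05 and 4 called by DESeq2 and by the exact test, and the list's log2 fold changes ran from -0.66 for Anxa1 to 2.92 for C1qc. The 3 subunit genes of C1q, which coats dying cells, had values close to each other at 2.87 to 2.92, with edgeR adjusted p-values of 0.0527 to 0.0576. Edil3, which encodes a relative of Mfge8, had 2 counts over all libraries. The vitamin K cycle, which readies Gas6 and protein S to bind phosphatidylserine, held 0 DEGs of 5 tested genes by edgeR, DESeq2 or the exact test, with 1 at an unadjusted p below 0.05 by edgeR. Ggcx, the gamma-carboxylase gene, was at 14.96 ± 1.92 and 16.6 ± 0.214 CPM (SD, n = 3 each), a log2 fold change of -0.15 (SE 0.135).

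Of the find-me, eat-me and do-not-eat-me signals, 1 of 15 tested genes rose. This was Sirpa, which encodes the phagocyte receptor of CD47, at 594 ± 192 CPM in CD36+ NK and 103 ± 38.3 CPM in CD36- NK (log2 fold change 2.53, SE 0.349, adjusted p = 0.00697 by edgeR). Cd47 itself had a log2 fold change of -0.16 (SE 0.120). In the engulfment machinery 1 of 15 tested genes rose, Ptk2, which encodes focal adhesion kinase, with a log2 fold change of 1.23 (SE 0.262, adjusted p = 0.0300 by edgeR). The median of that list was -0.10.

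In phagosome maturation, 3 of 19 tested genes rose, the lysosomal enzyme genes Ctsl, Lipa and Dnase2a, with log2 fold changes of 1.26, 1.32 and 1.27. Among nuclear receptors and responses to ingested cells 4 of 15 rose, among them Il10 at 2.84, Slc12a2 at 2.52 and Pparg at 3.11 on the log2 scale (edgeR adjusted p = 0.0136, 0.0150 and 0.0240). Nr1h3, which encodes the sterol receptor LXR alpha, had a log2 fold change of 2.42 and just missed the threshold (SE 0.629, adjusted p = 0.0538 by edgeR). Among genes of TAM receptor shedding and downstream signalling 0 of 13 rose and 1 fell, Lck, a kinase gene of T and NK cells, at -1.78 (SE 0.307, adjusted p = 0.0150 by edgeR). The sheddase gene Adam17 had a log2 fold change of 0.37 (SE 0.244) and Cblb, whose product acts downstream of TAM receptors in NK cells, one of -0.23 (SE 0.148).

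**Figure D5:**
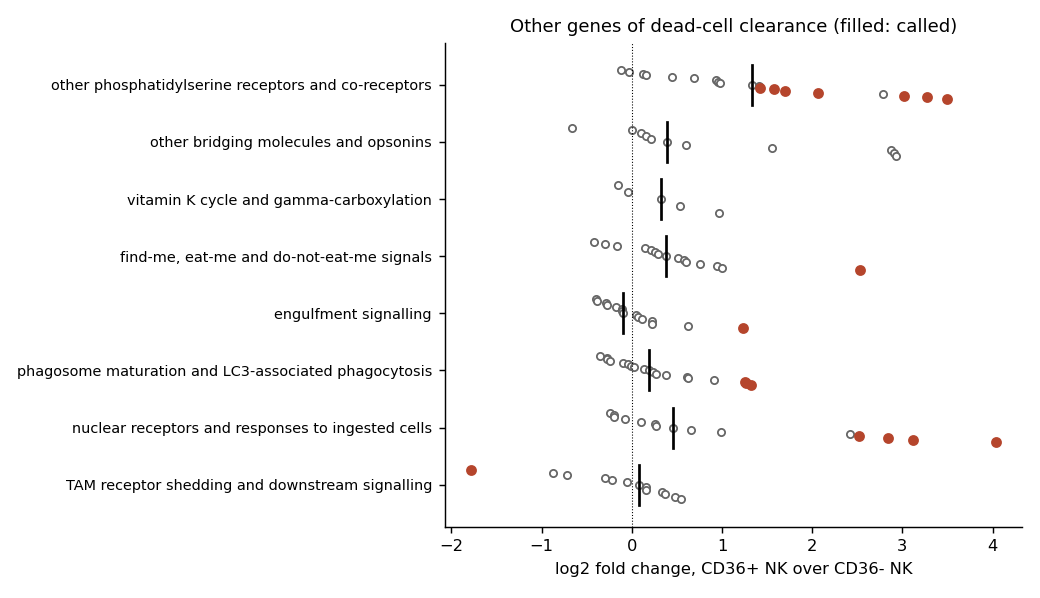
Log2 fold change in CD36+ NK over CD36- NK of each tested gene in 8 lists of dead-cell clearance, with filled red points for DEGs, open points for the others and a bar at each list's median. Higher DEGs were most numerous among phosphatidylserine receptors (7 of 19), and the 1 lower DEG, at -1.78, was in the signalling list.

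Each of the 7 genes carries the KEGG entry Efferocytosis in the deposited table, which 154 genes have. This list was taken up after the table had been seen. Of its 147 other genes 126 were tested and 53 were also in the 8 lists, 17 rose, Cd36 among them, and 1 fell in CD36+ NK, beside 2.98% of all tested genes in each direction, and the median log2 fold change was 0.15.

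The tested genes with a pattern most like that of Tyro3 over the 6 libraries, by Pearson's correlation of log2 CPM with a pseudocount of 2, were Gm44511 (r = 0.997), Cracdl (0.996) and Cox6a2 (0.996). Each was a lower DEG, with log2 fold changes of -2.05, -1.48 and -1.52. With the same groups in every gene such values were common, and 459 tested genes had an r above 0.95 with Tyro3.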

How the data were processed

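Read filtering was by Seqtk, alignment by HISAT2 2.0.4 and counting of fragments by StringTie. The authors deposited raw counts and FPKM values per gene for 6 libraries. The FPKM values were the counts over gene length and library total (within 1% in 100% of 7439 genes with over 200 counts in every library) and served only for levels compared between genes. Gene identifiers are mouse Ensembl; the submitters' processing notes name a rat assembly, and the table names no build. Lines of 2 genes were rejoined. Columns carry library names and were matched to samples by them. The names of the CD36+ NK libraries have another CD36 sign than the titles, and those of CD36- NK replicates 1, 2 and 3 carry the numbers 6, 1 and 2. Groups and replicate numbers follow the titles. Replicates differed beyond sampling noise (chi-square per degree of freedom 14.7 to 29.0).

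Counts were tested with edgeR 4.0.16 in R 4.3.3 (filterByExpr, minimum count 10; TMM; quasi-likelihood test, no block; standard error from the F statistic), after the study's methods, which name edgeR with TMM. On simulated counts with 200 genes changed by 2 on the log2 scale, 175 were called with 14 others. Exact permutation tests used scipy 1.17.1. A level floor is 3 counts. Alternatives were the exact test of edgeR, DESeq2 1.42.0, RLE and upper-quartile factors, other filters, blocks and each library left out. The 7 genes, the pathway and marker lists and the tests were chosen with earlier results of these data known. Named genes were the 7, Cd36, up to 3 DEGs of lowest p per pathway list and direction, the 3 genes most like a called one, and markers at 0; others were named after their values were seen. Promoter windows are from RefSeq (GRCm38.p6), matched by symbol for 7 of 7 genes. The values of 1 gene of the pathway lists are not reported here.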

Additional observations from a re-analysis of the deposited data

How the results depend on the processing

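The direction of each of the 7 genes was kept in each of 14 alternative fits that could test it, and Pros1 and Mfge8 were called in none. Axl became a DEG with DESeq2 (log2 fold change 2.68, adjusted p = 0.0197), edgeR's exact test (2.69, adjusted p = 0.00357) and the form of the library name as a block (2.76, edgeR adjusted p = 0.0458), Gas6 with DESeq2 (2.63) and the exact test (2.62), and Mertk with the exact test (2.81). With single libraries left out, the log2 fold changes ran from 2.11 to 3.92 for Axl, 2.24 to 4.93 for Mertk, 1.97 to 3.60 for Gas6, 2.48 to 4.61 for Timd4, 0.36 to 0.88 for Pros1, -0.98 to -0.74 for Mfge8 and -2.23 to -1.63 for Tyro3; the upper ends of the first 4 came from leaving out CD36- NK replicate 2. Over all alternatives the adjusted p of Tyro3 ran from 4.97e-05 to 0.0684.

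Genes called higher among all tested genes numbered 440, and 94 (without CD36- NK replicate 1) to 708 (without CD36- NK replicate 2) with single libraries left out, 723 with the exact test and 749 without a fold threshold. Genes called lower numbered 440, and 288 to 554, the lowest without CD36- NK replicate 3, and 803 without a fold threshold. In the pathway lists the 16 higher genes became 6 to 27 and the 1 lower gene 0 to 2, with the same libraries at the ends for the higher genes. Leaving out the second CD36+ NK library gave 10 higher pathway genes, and the third of either fraction 7.

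In a fit blocked on the replicate number, Tyro3 was at -1.91 and no longer a DEG (edgeR adjusted p = 0.0671), 0 of the 7 genes were DEGs by edgeR (6 at an unadjusted p below 0.05, as 27.2% of all tested genes) against 3.79% of all tested genes, and 221 genes in all were called higher. The numbers were not shown to pair the samples: deviations of same-numbered libraries correlated at 0.367, 0.0871 and -0.0860 across genes, and 2 of 6 libraries correlated best with their own number. These are numbers of the titles, and the library names number the CD36- NK samples differently. With the block the adjusted p of Mfge8 was 0.0528. The cause of these changes was not tested. Gas6 and Timd4 could not be tested with at least 10 counts required in every library. Of the 7 genes, Gas6, Tyro3 and Timd4 had the fewest counts over all libraries, at 263, 281 and 641.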
